A study of Mus musculus with 6 samples.

Results

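The 9 genes described here are Igf2bp1, Igf2bp2, Igf2bp3, Lin28a, Lin28b, Hmga1, Hmga2, Arid3a and Sox17, a set known for high expression in fetal or early blood stem cells. They were chosen by symbol from a proposed list, and each symbol matched 1 gene among the 55471 gene IDs of the deposited table. The list was proposed with results of the same comparison in view, so the levels and differences of the 9 genes are given as a description, with no p-value, and nothing is read from calls on them. The samples were haematopoietic stem cells of mice with the genotype ETV6-RUNX1, the fusion of a transcriptional repressor with the blood transcription factor Runx1 that is found in childhood B-cell precursor leukaemia. The uninduced group (3 libraries) came from control mice given no doxycycline, and the induced group (3 libraries) came from mice of the same genotype fed doxycycline for 2 weeks. Cells of both groups were sorted as lineage-negative, Kit-positive, Sca1-positive, CD48-negative and CD150-positive. The age and strain of the mice, the promoter behind the fusion and any pooling of animals are not given in the sources used here. No library of doxycycline-fed mice without the fusion was analysed, so effects of the fusion and of doxycycline cannot be told apart.

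Fetal blood stem cells divide often, and adult ones are mostly quiescent. Lin28a and Lin28b encode RNA-binding proteins that block the maturation of let-7 microRNAs, and let-7 in turn represses Lin28b, Hmga2 and the Igf2bp genes. The Igf2bp proteins bind and stabilise messenger RNAs, among them Igf2 and many transcripts with the N6-methyladenosine mark (m6A). Hmga1 and Hmga2 encode small chromatin proteins that bind AT-rich DNA. Sox17 is a transcription factor required by fetal but not adult blood stem cells, and Arid3a is an AT-rich binding factor of B cells and early progenitors that is another let-7 target.

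The sequences through which let-7 recognises these transcripts are shown first, because they link most of the 9 genes. Among 12 let-7 family precursor genes, 11 had a 5-prime mature form in RefSeq (GRCm38.p6) with the same seed (bases 2 to 8, in capitals), in 9 distinct sequences. The 4 below differ outside the seed.
mmu-let-7a-5p: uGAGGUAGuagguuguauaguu
mmu-let-7g-5p: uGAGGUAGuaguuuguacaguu
mmu-let-7i-5p: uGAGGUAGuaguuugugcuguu
mmu-miR-98-5p: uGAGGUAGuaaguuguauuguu

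Lin28 proteins are known to bind a GGAG element in the loop of let-7 precursors. Of the 11 precursors with both mature arms in RefSeq, 8 held GGAG between the arms. The loops of Mirlet7g (with GGAG in capitals), which has it, and Mirlet7b, which does not, are given as examples.
Mirlet7g loop: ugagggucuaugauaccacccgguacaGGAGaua
Mirlet7b loop: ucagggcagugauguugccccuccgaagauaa

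The longest annotated 3-prime UTR of each gene (GENCODE, GRCm38) was searched on the transcript strand for the 7 bases that pair with the seed, CTACCTC. Of the 9 genes, 8 held at least 1 match, against 9.02% of 21037 coding genes of any UTR length. The set holds known let-7 targets, so nothing is read from this share. Igf2bp1, Lin28b and Hmga2 held 4 each. Among genes whose UTR length was within 20% of theirs, 33.7%, 24.2% and 15.5% held at least 1 match. As many as theirs were held by 0.355%, 0.236% and 0.134%. Lin28a and Arid3a held 2, Igf2bp2, Igf2bp3 and Hmga1 held 1, and Sox17 held none in a UTR of 785 bases. For the genes with 1 match, 12.0% (Igf2bp2), 13.3% (Igf2bp3) and 8.07% (Hmga1) of genes of similar UTR length held at least 1. A match is a description of the letters and does not show that a site is used. The best-known target and the 3 genes whose induced values all lay below the uninduced ones are shown with the match in capitals.
Hmga2 (chr10:120364224-120364246, minus strand): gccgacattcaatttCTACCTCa
Igf2bp2 (chr16:22059473-22059495, minus strand): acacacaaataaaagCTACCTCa
Arid3a (chr10:79953895-79953917, plus strand): aaggcaagtttctttCTACCTCa
Hmga1 (chr17:27563277-27563299, plus strand): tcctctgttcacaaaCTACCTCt

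**Figure D1:**
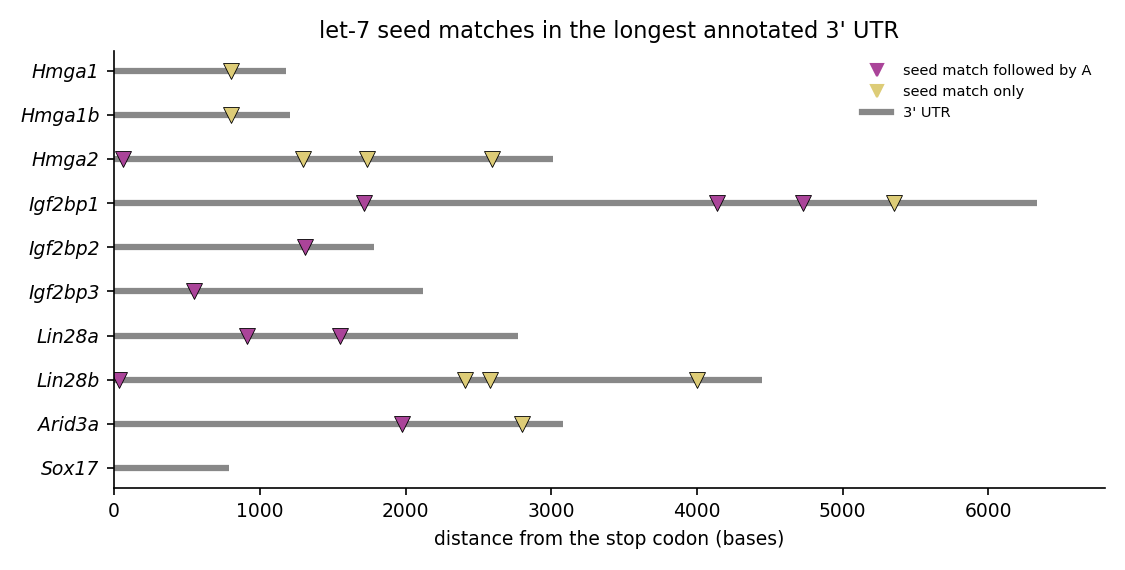
Positions of let-7 seed matches (triangles) along the longest annotated 3-prime UTR (grey bar) of each gene and of Hmga1b, a copy of Hmga1, against the distance from the stop codon in bases. Purple triangles are matches followed by A and yellow ones are other matches. Igf2bp1, Lin28b and Hmga2 carry 4 matches each and Sox17 carries none.

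Abundance was measured by total RNA sequencing and deposited as TPM, which corrects for gene length and fixes the total of every library, so levels of different genes can be compared per length but the depth is unknown. Differences are on the log2(TPM + 1) scale, induced minus uninduced, which understates changes of low genes. The median difference over the 13470 tested genes (those averaging 1 TPM or more) was -0.35, and it was 0.0033 after median-of-ratios scaling. Differences of the 9 genes, list medians and the genes named as having fallen in a list are therefore given on both scales. MicroRNA-type rows took 18.6 to 30.1% of TPM in uninduced and 33.9 to 41.2% in induced libraries, and nuclear protein-coding genes took 26.6 to 32.9% and 20.5 to 23.2%. The part of this shift in the deposited differences was not tested. All 10 stem cell markers on the list were tested. They summed to 472 to 612 TPM in uninduced and 628 to 699 TPM in induced libraries. Of the 10, 4 rose and 1 (Kit) fell, beside 1.29% of all tested genes called higher and 10.2% lower. At an unadjusted limma p under 0.05, 6 were higher and 2 lower, Kit and Slamf1 (13.1 to 7.53 TPM as group means). Of all 13470 tested genes 3762 had such a p, either way. After median-of-ratios scaling 5 were called higher and none lower, beside 2.88% and 3.1% of all tested genes. Kit was no longer called (-0.40, limma adjusted p 0.224). Exact zeros are read with care: 8291 of 21933 protein-coding genes were listed at 0 in all 6 libraries, and these included Dgcr8 and Men1, which most cells use. In bulk libraries, fewer cells that express a gene and less RNA per cell cannot be told apart.

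Igf2bp2 was at several TPM in uninduced libraries and under 1 TPM in induced ones. This gene (ENSMUSG00000033581, chromosome 16, 22059009 to 22163299, minus strand) encodes the member of its family that persists most widely in adult tissues. Its levels were 6.33, 7.03 and 5.92 TPM in uninduced replicates 1, 2 and 3, and 0.743, 0.170 and 0 TPM in the induced replicates. All 3 uninduced libraries were above all 3 induced ones. The log2 difference was -2.55 (SE 0.40), or -2.33 (SE 0.39) after median-of-ratios scaling. With induced values this low the pseudocount sets the size: it was -4.52 with a pseudocount of 0.1 and -1.11 with 5. Igf2bp2 passed the filter on low values only through its uninduced libraries. No other annotated gene overlaps Igf2bp2.

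Its paralogues were at or near 0. Igf2bp1 (ENSMUSG00000013415, chromosome 11, 95957163 to 96005940) was listed at 0 in 5 libraries and at 0.00826 TPM in induced replicate 3. Igf2bp3 (ENSMUSG00000029814, chromosome 6, 49085223 to 49214957), the member most tied to fetal tissue and to some leukaemias, was listed at 0 in 5 libraries and at 0.133 TPM in uninduced replicate 3. Of the family, Igf2bp2 was the one member above 1 TPM in any library.

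The Lin28 genes were listed at 0 in all libraries but 1. Lin28a (ENSMUSG00000050966, chromosome 4, 134003330 to 134018841) was listed at 0 in all 6 libraries. Lin28b (ENSMUSG00000063804, chromosome 10, 45376620 to 45486395), the paralogue used by fetal blood progenitors, was listed at 0.929 TPM in uninduced replicate 2 and at 0 in the other 5. A value in 1 of 6 libraries gives no difference between groups.

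Hmga1 was the most abundant of the 9 genes. It (ENSMUSG00000046711, chromosome 17, 27556497 to 27563674, plus strand) was at 70.8, 91.2 and 48.4 TPM in the uninduced replicates and at 26.7, 23.6 and 33.2 TPM in the induced ones. Means were 70.1 ± 21.4 and 27.8 ± 4.86 TPM (SD, n = 3 each), and the groups did not overlap. In uninduced libraries its mean exceeded that of 95.2% of the protein-coding genes above 0, and in induced libraries that of 87.7%. The log2 difference was -1.27 (SE 0.25), or -0.87 (SE 0.20) after median-of-ratios scaling. Without induced replicate 2, the lowest library, the difference was -1.16 and Hmga1 was no longer called.

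Reads of Hmga1 cannot be separated cleanly from those of Hmga1b (ENSMUSG00000078249, chromosome 11, 120762794 to 120764419), a near-identical copy that is not among the 9 genes. Their best-matching transcripts were 99.8% identical over 1602 aligned bases, so how the authors' tool split reads between them is uncertain. The table lists Hmga1b on 2 rows, of which 1, carrying the NCBI gene number of Hmga1, is at 0 in every library. Hmga1b was listed at 18.98, 21.2 and 19.9 TPM in uninduced replicates 1 to 3 and at 11.5, 10.4 and 8.15 TPM in induced replicates. It passed in the fit over all genes (log2 difference -0.94, SE 0.24, limma adjusted p 0.0346), lower in induced libraries. That call was lost under 12 of 16 alternatives, including median-of-ratios scaling (-0.56, limma adjusted p 0.207) and leaving out any single library (adjusted p 0.0653 to 0.0995). The sum of both genes is also given. Because TPM divides by transcript length, this sum can still shift with the split. It was 89.8, 112 and 68.3 TPM in uninduced and 38.2, 34.1 and 41.3 TPM in induced libraries, and the ratio of the group means was 2.38, close to the 2.52 of Hmga1 alone. Hmga1 also overlaps the opposite-strand gene AI413582, which was listed at 1.78 to 13.9 TPM, and whether the counting used strand is not given in the sources used here.

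Hmga2 (ENSMUSG00000056758, chromosome 10, 120361275 to 120476469, minus strand), a let-7 target that promotes self-renewal of fetal stem cells, was low in both groups. It was at 0.559, 2.67 and 1.45 TPM in uninduced and at 2.20, 1.70 and 1.72 TPM in induced libraries. The induced values lay inside the uninduced range, and the log2 difference was 0.25 (SE 0.45), or 0.50 (SE 0.42) after median-of-ratios scaling. Without uninduced replicate 1, the lowest library, the difference was -0.067.

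Arid3a (ENSMUSG00000019564, chromosome 10, 79927043 to 79955018, plus strand) was at 8.29, 5.49 and 5.33 TPM in uninduced libraries and at 2.02, 2.15 and 2.36 TPM in induced ones. Means were 6.37 ± 1.67 and 2.18 ± 0.169 TPM (SD, n = 3 each), with no overlap between the groups. The log2 difference was -1.19 (SE 0.34), or -0.88 (SE 0.32) after median-of-ratios scaling. No other annotated gene overlaps Arid3a. Its paralogue Arid3b was at 2.12, 1.60 and 1.95 TPM in uninduced and 3.31, 3.75 and 5.28 TPM in induced libraries. These groups did not overlap either, in the opposite direction, but Arid3b did not pass on either scale (log2 difference 0.81, limma adjusted p 0.182, and 1.10, adjusted p 0.0994). Arid3c was listed at 0 in all 6 libraries.

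Sox17 (ENSMUSG00000025902, chromosome 1, 4490931 to 4497354, minus strand) was listed at 0 in 5 libraries and at 0.0163 TPM in induced replicate 2. Of the related SoxF factors, Sox7 was listed at 0 in all 6 libraries. Sox18 was at 3.23, 3.38 and 5.53 TPM in uninduced and 2.43, 3.93 and 5.55 TPM in induced libraries, with overlapping groups (limma adjusted p 0.956).

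**Figure D2:**
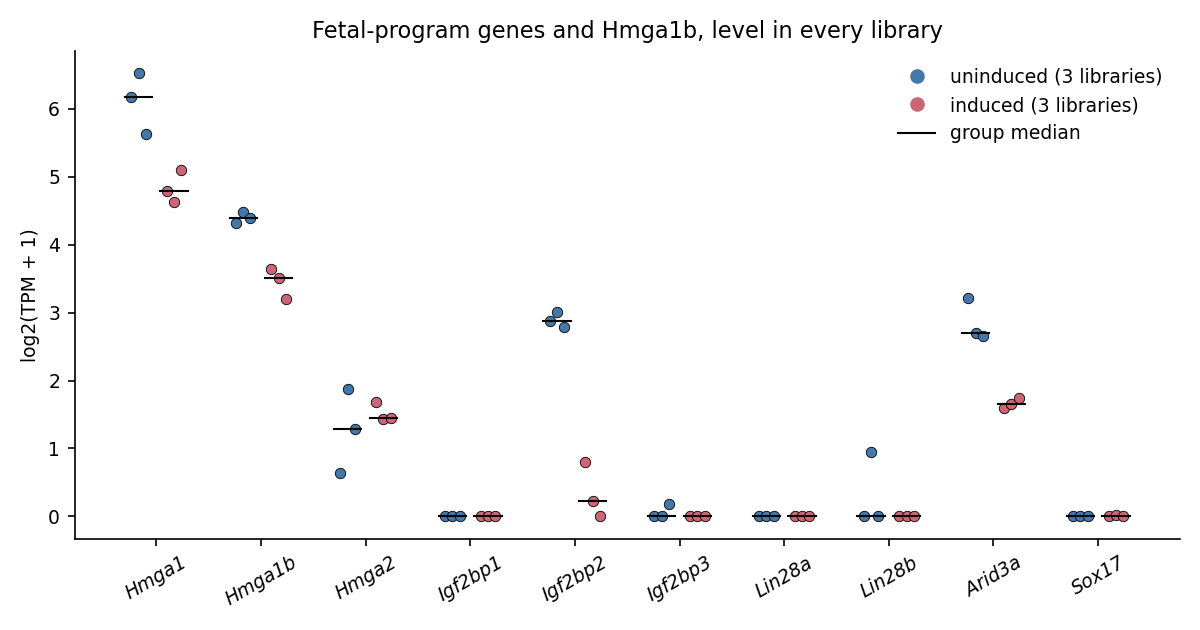
Level of each fetal-program gene and of Hmga1b in every library, as log2(TPM + 1), with uninduced libraries in blue, induced libraries in red and a line at each group's median. Hmga1, Igf2bp2 and Arid3a do not overlap between groups, Hmga2 overlaps, and the other 5 lie at or near 0 in every library except Lin28b in 1 uninduced library.

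Counted together, 4 of the 9 genes reached the mean of 1 TPM needed for the fit, and 5 did not. Of these 4, 2 were called lower (Igf2bp2 and Hmga1) and none higher in the limma fit over all genes, where 10.2% of tested genes were called lower, 1.29% higher and 11.5% either way. After median-of-ratios scaling the same 2 were called lower, where 3.1% of tested genes were called lower, 2.88% higher and 5.98% either way. Arid3a was not called on either scale. Groups did not overlap, with induced libraries lower, for 3 of the 4 tested genes of the set and for 28.2% of all tested genes (4.83% with induced libraries higher, 33.1% either way). Nothing is read from these shares, because the list was proposed with this comparison in view.

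The order of levels differed between the groups. In uninduced libraries Hmga1 came first. Igf2bp2 and Arid3a followed with overlapping ranges, then Hmga2 below both. In induced libraries Hmga1 was again first, Arid3a and Hmga2 overlapped next, and Igf2bp2 came below them. In every library Igf2bp1, Igf2bp3, Lin28a, Lin28b and Sox17 were each below 1 TPM.

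**Figure D3:**
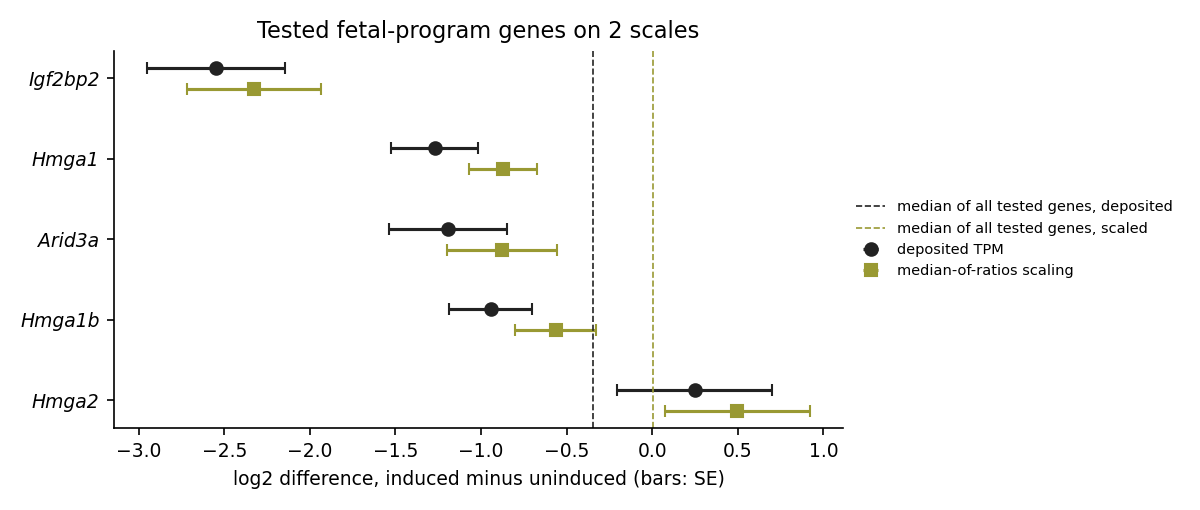
Log2 difference (induced minus uninduced, points) with its SE (bars) for the 4 tested genes and Hmga1b, on deposited TPM (black circles) and after median-of-ratios scaling (olive squares). Dashed lines mark the median of all tested genes on each scale, -0.35 and 0.0033. Igf2bp2 lies farthest below both lines and Hmga2 lies above them.

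The genes whose pattern over the 6 libraries was most like each tested gene were sought among 7771 protein-coding genes averaging 5 TPM or more, by Pearson r of log2(TPM + 1). For Igf2bp2 they were Strap (r 0.999), H1f5 (0.998) and H2bc3 (0.998), the last 2 being histone genes. For Hmga1 they were Adar, Rpl19 and Chmp6 (each 0.999), for Arid3a Ncaph2, Nedd4 and Utp6 (0.998, 0.998 and 0.997) and for Hmga2 Malt1, Snapin and Csrp2 (0.992, 0.983 and 0.981). Among the tested genes of the set, r was 0.925 for Igf2bp2 with Arid3a, 0.895 for Hmga1 with Arid3a and 0.892 for Igf2bp2 with Hmga1. It was -0.25, -0.17 and -0.54 for Hmga2 with Igf2bp2, Hmga1 and Arid3a. The 6 points share the offset between the groups, and these values describe likeness only.

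The let-7 pathway itself was examined next. The precursor rows hold short hairpins and not mature let-7, and they were sparse. Of 12, 2 reached the filter and neither passed. Mirlet7c-1 was at 6.54 and 0.501 TPM in uninduced replicates 1 and 2 and at 0 in the other 4 libraries, and Mirlet7c-2 was at 6.82 TPM in induced replicate 2 and 0 elsewhere. Of the 22 genes for microRNA processing and let-7 turnover, 20 were tested, 2 fell and none rose, beside 10.2% of all tested genes called lower. After rescaling to nuclear protein-coding genes 1 was called lower and 1 higher, beside 479 and 465 of all 10562 genes tested on that scale. The higher one was the helicase Ddx5 (0.35, SE 0.094, limma adjusted p 0.0476, against -0.091 on deposited TPM). The list's median log2 difference was -0.46, against -0.35 for all genes, and -0.074 after median-of-ratios scaling.

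Both genes that fell encode proteins that bind let-7 precursors. Hnrnpa1, which antagonises let-7a processing, was at 339, 345 and 251 TPM in uninduced and 162, 135 and 166 TPM in induced libraries and fell (log2 difference -0.999, SE 0.17, limma adjusted p 0.00684, and -0.59, adjusted p 0.0212, with median-of-ratios). Khsrp, which promotes it, had means of 74.6 ± 3.51 (uninduced) and 42.7 ± 2.73 (induced) TPM, with SD over 3 libraries each, and fell (-0.79, SE 0.17, limma adjusted p 0.0165). Khsrp was no longer called under median-of-ratios scaling (-0.39, limma adjusted p 0.161), nor without induced replicate 2 or 3 (adjusted p 0.0653 and 0.0544). Dicer1, the enzyme that cuts precursors, was at 27.8, 30.7 and 10.8 TPM in uninduced and 9.33, 8.13 and 8.51 TPM in induced libraries and did not pass (limma adjusted p 0.0632). Tut4, which tails let-7 precursors bound by Lin28a, did not pass either (-0.66, adjusted p 0.0754, and -0.27, adjusted p 0.475, with median-of-ratios). Trim71, a let-7 target in early embryos, was listed at 0 in all 6 libraries.

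Of 25 known let-7 target genes outside the set, 22 were tested, 5 fell and none rose, beside 10.2% of all tested genes called lower. Their median log2 difference was -0.69, and -0.32 after median-of-ratios scaling, where 3 were called lower, beside 3.1% of all tested genes. Mycn, a regulator of stem cell growth, was at 120, 160 and 138 TPM in uninduced and 8.38, 13.7 and 14.4 TPM in induced libraries (log2 difference -3.44, SE 0.24, limma adjusted p 0.000123). Cdc25a, a phosphatase that drives entry into S phase, had means of 12.5 ± 3.57 (uninduced) and 3.50 ± 1.40 (induced) TPM, with SD over 3 libraries each, and fell (-1.59, limma adjusted p 0.0217). Ccnd1, a D-type cyclin, had means of 13.6 ± 3.37 (uninduced) and 4.13 ± 2.04 (induced) TPM, with SD over 3 libraries each, and fell (-1.55, limma adjusted p 0.0227). Under median-of-ratios scaling Mycn was still called (-3.05, limma adjusted p 0.000313), and Cdc25a and Ccnd1 were not (-1.24 and -1.20, adjusted p 0.0618 and 0.0766). Cdc25a was also not called without uninduced replicate 1 or 2 or induced replicate 1 or 2 (limma adjusted p 0.0703 to 0.0759), nor Ccnd1 without uninduced replicate 1 or 2 or induced replicate 2 or 3 (0.0677 to 0.0862). The other 2 were Myc (-1.46, and -1.07 with median-of-ratios) and Ccnd2 (-1.08 and -0.68), called on both scales. Igf1r, the receptor through which Igf2 signals, was at 26.4, 36.6 and 26.9 TPM in uninduced and 19.6, 14.3 and 20.6 TPM in induced libraries and did not pass (limma adjusted p 0.0926).

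Igf2bp proteins read m6A, and 20 of 20 genes for m6A writers, erasers and readers could be tested. Of these 2 fell and none rose on deposited TPM, a share near the background of 10.2% called lower on that scale. The list's median log2 difference was -0.49, or -0.11 after median-of-ratios scaling. Pabpc1, the poly(A)-binding partner of Igf2bp proteins, had means of 756 ± 72.2 (uninduced) and 360 ± 34.2 (induced) TPM, with SD over 3 libraries each, and fell (-1.07, SE 0.14, limma adjusted p 0.00252). Hnrnpa2b1, a nuclear m6A reader, had means of 452 ± 65.02 (uninduced) and 236 ± 12.3 (induced) TPM, with SD over 3 libraries each, and fell (-0.93, SE 0.15, limma adjusted p 0.00551). Under median-of-ratios scaling both were called, beside 3.1% of all tested genes called lower. Their differences were smaller there, -0.66 for Pabpc1 and -0.52 for Hnrnpa2b1 (limma adjusted p 0.0106 and 0.0193). The methyltransferase subunits Mettl3 and Mettl14 did not pass.

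Of 12 other HMG protein genes 10 were tested, and 5 fell with none rising, beside 10.2% of all tested genes called lower. Their median log2 difference was -0.77, and -0.38 after median-of-ratios scaling, where 4 were called lower, beside 3.1% of all tested genes. Hmgn5, a nucleosome-binding protein, had means of 58.5 ± 4.47 (uninduced) and 19.2 ± 0.662 (induced) TPM, with SD over 3 libraries each, and fell (-1.56, SE 0.19, limma adjusted p 0.00181). Hmgn1, of the same family, had means of 57.4 ± 7.09 (uninduced) and 22.2 ± 4.48 (induced) TPM, with SD over 3 libraries each, and fell (-1.34, limma adjusted p 0.00562). Hmgb2, a DNA-bending protein abundant in dividing cells, had means of 99.4 ± 16.5 (uninduced) and 42.02 ± 2.18 (induced) TPM, with SD over 3 libraries each, and fell (-1.21, limma adjusted p 0.0045). Ssrp1, a subunit of the histone chaperone FACT, also fell (log2 difference -1.04, limma adjusted p 0.00525). With median-of-ratios the differences were -1.16 for Hmgn5, -0.95 for Hmgn1, -0.81 for Hmgb2 and -0.63 for Ssrp1, and each was called (limma adjusted p 0.00753 to 0.0456). Hmgb1, Hmgb3, Hmgn2, Hmgn3 and Hmg20b did not pass on either scale. With only genes averaging 5 TPM or more fitted, 1465 of 8996 were called lower. Called lower there were 5 of 10 HMG genes, 5 of 17 let-7 targets and 2 of 17 m6A genes.

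Of 18 genes of fetal type or of the switch from fetal to adult stem cells, 7 were tested, 1 fell and none rose, beside 10.2% of all tested genes called lower, so that little can be read from the count. The median log2 difference was -0.043, and it was above 0 after median-of-ratios scaling (0.27). The gene that fell was Ezh2, the Polycomb methyltransferase prominent in fetal stem cells. It was at 60.01, 44.3 and 41.2 TPM in uninduced and 13.6, 15.3 and 21.2 TPM in induced libraries (-1.49, SE 0.24, limma adjusted p 0.00576, and -1.10, adjusted p 0.0224, with median-of-ratios). Its adult counterpart Ezh1 had overlapping groups (20.8, 12.2 and 11.2 TPM in uninduced and 14.7, 16.04 and 19.4 TPM in induced libraries) and did not pass (limma adjusted p 0.668). The embryonic globins Hbb-bh1, Hbb-y and Hba-x were listed at 0 in all 6 libraries. Igf2, whose messenger RNA the Igf2bp proteins bind, was too low to be tested, with 0.729, 0.408 and 0.435 TPM in uninduced libraries and 0, 0.0871 and 0 TPM in induced ones. Its imprinted neighbour H19 was at 1.70, 1.20 and 0.0152 TPM in uninduced libraries and listed at 0 in the induced ones. On deposited TPM none of the genes in these 5 lists was higher by limma at an unadjusted p under 0.05, and 9, 8, 7, 6 and 2 were lower, in the order given here. After median-of-ratios scaling 2, 1, 0, 0 and 2 were higher and 4, 5, 2, 5 and 1 lower at that level. Counting both directions, 3762 of all 13470 tested genes passed it on deposited TPM, and 2931 after that scaling.

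**Figure D4:**
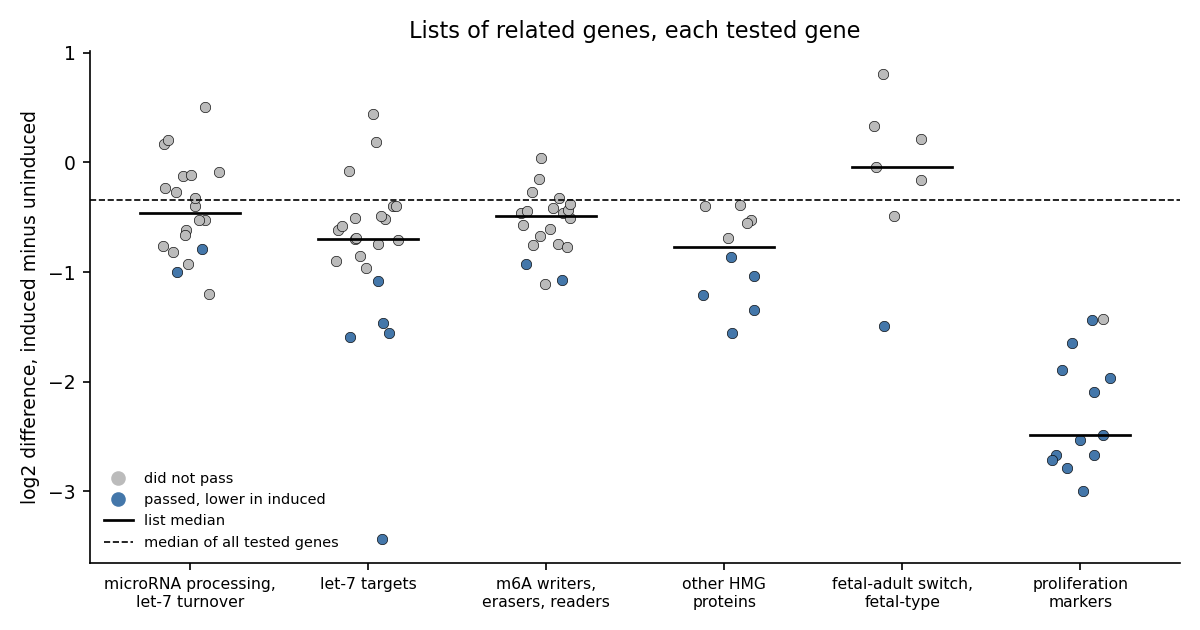
Log2 difference (induced minus uninduced, deposited TPM) of each tested gene in 5 lists of related genes and in the proliferation markers, with genes that passed (limma adjusted p under 0.05) in blue and others in grey. Solid lines are list medians and the dashed line is the median of all tested genes, -0.35. On this scale no gene of these lists passed as higher, and the proliferation markers have the lowest median, -2.48.

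Levels that moved with the differences above were measured on marker lists, which were chosen with earlier results of these data known. Of all tested genes 10.2% were called lower and 1.29% higher, or 3.1% and 2.88% after median-of-ratios scaling. On deposited TPM 3762 of 13470 had an unadjusted limma p under 0.05, either way. Of 13 proliferation markers 12 fell (11 after median-of-ratios scaling), with a median log2 difference of -2.48, or -2.16 after that scaling, and their summed level was 406 to 467 TPM in uninduced and 83.1 to 116 TPM in induced libraries. Mki67, for example, had means of 49.9 ± 2.83 (uninduced) and 7.04 ± 0.856 (induced) TPM, with SD over 3 libraries each, and fell (-2.67, limma adjusted p 0.000255, and -2.29, adjusted p 0.000634, with median-of-ratios). Of 10 erythroid markers 7 rose, with a summed level of 62.1 to 77.5 TPM in uninduced and 421 to 483 TPM in induced libraries. The 4 adult globin genes Hba-a1, Hba-a2, Hbb-bs and Hbb-bt made up most of that sum. None of the 10 was called lower by limma, but Epor and Tfrc were lower at an unadjusted p under 0.05 (3.37 to 0.485 TPM and 9.39 to 4.26 TPM as group means). The part of either in the lower Igf2bp2, Hmga1 and Arid3a levels was not tested. Of 9 B-lineage markers, 6 were listed at 0 in all 6 libraries, among them Cd79a, Ebf1 and Pax5, and the list summed to 4.35 to 9.86 TPM in uninduced and 3.11 to 3.85 TPM in induced libraries, nearly all of it Cd79b. Of 10 endothelial markers 1 (Stab2) was listed at 0 throughout, Cdh5 was at 0 in 5 libraries, and the list summed to 18.4 to 31.3 TPM in uninduced and 32.6 to 46.6 TPM in induced libraries, mostly Pecam1, which stem cells also express. Of 8 T and NK cell markers, Cd3e, Cd3d, Cd3g, Cd2 and Cd8a were at 0 in all 6 libraries. That list summed to 5.84 to 16.3 TPM in uninduced and 0.253 to 3.27 TPM in induced libraries. Granulocyte and monocyte markers summed to 195 to 216 and 147 to 170 TPM. Of their 7 tested genes, 1 (Prtn3) rose and none fell by limma, with 4 lower at an unadjusted p under 0.05. The 8 stromal markers summed to 0.404 to 4.69 and 0.077 to 0.712 TPM.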

How the data were processed

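Total RNA libraries (3 uninduced, 3 induced) were grouped by their titles. The authors deposited gene values in TPM from StringTie, per the file name. HISAT2, bcl2fastq, DESeq2 and the build GRCm38 are named in the submitters' processing notes, and versions, annotation and read filters are not given in the sources used here. A percent GC column, per the file headers, was not used. Rows (60496, of which 5025 repeat a gene ID) were summed per ID. TPM keeps no depth, so no counting interval is given. The fit used limma 3.58.1 in R 4.3.3 on log2(TPM + 1), with a variance trend and two-sided tests, over the 13470 genes averaging 1 TPM or more. P-values were adjusted by Benjamini-Hochberg, with a threshold of 0.05. No label says the replicates are separate animals, so p-values measure only the spread between libraries. On simulated data over 13470 genes, 90% of changes of 2 log2 units and 31% of 1 were recovered. Changes were placed only in genes averaging above about 5 TPM. Igf2bp2, Arid3a and Hmga2 averaged less, so these rates do not cover them. Named list genes were those past the threshold with groups apart, at most 3 each way per list by size of change, plus known partners of the 9 genes. The sequence search used GENCODE and RefSeq annotation of GRCm38, and blastn 2.17.0 aligned Hmga1 with Hmga1b. The 9 genes and all lists were chosen with earlier results of these data known. Some genes of the lists are counted but not reported here by name.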

Additional observations from a re-analysis of the deposited data

How the results depend on the processing

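The number of genes past the threshold was 1549 of 13470 (174 higher, 1375 lower). It was 752 of 23013 without the filter and 767 without the variance trend. With median-of-ratios size factors it was 806 (388 higher, 418 lower), and with quantiles equalised 814 (374 and 440). After rescaling to nuclear protein-coding genes it was 944 of 10562 (465 and 479). Leaving out a single library gave 611 (induced replicate 2) to 1276 (uninduced replicate 3), and omitting any library but the latter lowered it by more than 1.5 times. The replicate block gave 902. The labels give same-numbered libraries only a number in common. Their deviations from group means correlated at -0.0152 to 0.0215, which cannot show whether they shared a batch. The block left both calls among the 9 genes as they were. Those 2 calls became 1 without the filter, where Igf2bp2 was called, 1 at a mean of 5 TPM or more, where of the 9 genes only Hmga1 could be fitted, and 1 to 2 on omitting a library (1 without induced replicate 2). Without the variance trend the count was again 2, but Arid3a was called and Hmga1 was not, and with array weights it was 3, Arid3a included. The Igf2bp2, Hmga1 and Arid3a differences were below 0 in every alternative that could fit them. With a pseudocount of 0.1 the Igf2bp2 difference was -4.52, and with 5 it was -1.11, less than the -1.16 of Hmga1. The Hmga2 difference ranged from -0.067 (without uninduced replicate 1) to 0.55 (without uninduced replicate 2). The 2 microRNA processing genes became 5 at a mean of 5 TPM or more, 1 with median-of-ratios, with quantiles or with the replicate block, and 0 by limma without the variance trend, where 767 of all genes passed and 3550 had an unadjusted p under 0.05. Rescaling to nuclear protein-coding genes called 1 lower and 1 higher (Ddx5). Omitting a library gave 1 (induced replicate 2 or 3) to 3. The 5 let-7 targets became 2 without the filter, 3 with median-of-ratios or quantiles, and 2 to 5 on omitting a library (2 without induced replicate 2, 3 without uninduced replicate 1 or 2). The 2 m6A genes became 1 without the variance trend and 2 to 3 on omitting a library. For these shifts the cause was not tested. The HMG count (4 to 5) and the fetal to adult count (1) stayed within 1.5 times in all 17 alternatives. The depth is unknown, so a value of 0 carries no upper limit.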

Other observations

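Genes whose longest 3-prime UTR holds a let-7 seed match were described as a group, because 8 of the 9 genes hold one. Of tested genes 1096 held at least 1 match and had a median log2 difference of -0.35, against -0.36 for 9398 genes with none. Called lower were 7.85% of the first and 11.8% of the second, and called higher 1.09% and 1.40%. After median-of-ratios scaling the medians were -0.0060 and -0.0034, called lower were 2.55% and 3.54%, and called higher 1.92% and 3.25%. Of 135 genes with at least 2 matches, 10 were called lower and 1 higher, or 5 and 1 after median-of-ratios scaling. These counts describe the genes in these libraries and were chosen after seeing the data.

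Promoters of 300 bases (RefSeq, GRCm38.p6) were listed for 6 of the 9 genes and searched on both strands for TGTGGT (a RUNX motif), TTTNGCGC (an E2F motif) and CACGTG (an E-box), which 16.8%, 1.38% and 7.15% of 32851 promoters held. The windows of Igf2bp2, Hmga1, Hmga2 and Lin28a held none of the 3. Igf2bp3 held 2 E-boxes and Lin28b held 1. The Igf2bp2 window had a GC content of 76.7% with 47 CG pairs.

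Malsu1, which overlaps Igf2bp3 on the opposite strand, was at 6.16, 4.14 and 5.57 TPM in uninduced and 0.929, 1.75 and 3.09 TPM in induced libraries. The T and NK cell marker Nkg7 was at 6.21, 15.8 and 5.84 TPM in uninduced libraries and at 0 in the 3 induced ones. It passed the filter on low values only through its uninduced libraries, so no p-value is given for it. The CD3 chain genes Cd3e, Cd3d and Cd3g were listed at 0 in both groups, and such zeros are read with care.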
